A study of Mus musculus with 200 samples.

Results

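The levels of 7 mouse genes that had been listed as candidates for regulation from another chromosome were followed through the deposited embryos, out of 22033 genes in the tables. The genes are *Gm1943*, *Mir703*, *Wdr65*, *Etnk2*, *Serbp1*, *Apeh* and *6030468B19Rik*. *Pop1*, a protein subunit of the RNase P complex that trims transfer RNA precursors, was set beside them. The members were chosen by name from the levels of backcross embryos by genotype, so differences between genotypes in those embryos are given as a description, with no test. Of 21044 autosomal genes, 9733 averaged 5 or more RPM (reads per 1000000 counted reads) in the backcross embryos, and all 7 members were among them. *Gm1943* and *Mir703* reached that mean only through the embryos in which they were high.

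A variant acts in *cis* when it changes the output of the gene copy on its own chromosome, and in *trans* when it acts through a product that reaches both copies of a gene elsewhere. In a backcross, a *trans* effect shows as a level that follows the genotype at a locus on another chromosome, whatever the genotype at the gene itself. Some genes also have a near-identical copy elsewhere in the genome, left by the reverse transcription of a messenger RNA, and short reads of such copies are hard to place.

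RNA of whole E11.5 embryos was sequenced with 3SEQ, a method that reads polyadenylated RNA near its 3′ end. F1 embryos came from C57BL6/J (B6) mothers with Castaneus (Cast) fathers (B6 × Cast, 8 embryos of litters 3 and 5) or from Cast mothers with B6 fathers (Cast × B6, 8 embryos of litters 1 and 2), and each carries a B6 and a Cast copy of every autosomal locus. N2 embryos came from F1 parents backcrossed to B6, 89 with a B6 mother (17 litters) and 65 with an F1 mother (12 litters), and each is B6/B6 or B6/Cast at a given locus. Counted reads per embryo ranged from 15703888 to 38234229 in F1 and from 245220 to 5370322 in N2 embryos. Somite number, a measure of stage, averaged 52.4 ± 5.74 in B6 × Cast (SD, n = 7) and 44.3 ± 3.08 in Cast × B6 (n = 6), and 48.4 ± 3.23 (n = 85) and 49.4 ± 2.53 (n = 62) in N2 embryos of B6 and F1 mothers. All 10 markers of the midgestation embryo were above 1 RPM in every F1 embryo, and the 7 measured markers of placenta and decidua were below 1 RPM in every F1 embryo and at a median below 1 RPM in N2 embryos, although their sum reached 22.9 RPM in 1 of these. In such bulk samples fewer cells of a type and less RNA per cell cannot be told apart.

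Sequences are shown for the members with a near-identical copy inside the region their level followed. *Gm1943* is a transcribed pseudogene in RefSeq, is not in the GENCODE annotation used here, and is listed on the minus strand of chromosome 8 between the positions of *Zfhx3* and *Pmfbp1*. That gap of mm9 holds a stretch of 1111 bases at chr8:111863698-111864808 that matches *Wdr70*, a gene for a protein of WD repeats on chromosome 15 (chr15:7823055-8049209, minus strand), and it was taken to be *Gm1943* from its place and strand. Its first 219 bases were identical to bases 23 to 241 of the *Wdr70* transcript, with exons 1 to 3 joined and their introns missing. The next 895 aligned bases matched, at 97.7% identity with 14 mismatches and 4 gap openings, a part of the *Wdr70* intron that follows exon 3 (chr15:8042227-8043116), in which no exon is annotated. This part does not begin at the edge of exon 3 (chr15:8043676-8043759). The intronic bases between them are missing from the copy. The joins are printed on the minus strand of mm9, 5′ to 3′, because they mark where the chromosome 8 copy differs in arrangement from the chromosome 15 gene. Capitals mark the bases after each join.
Exon 1 to exon 2, chr8:111864725-111864754: cgggaaccagcgaagTGACAGGCGCAGACA
Exon 2 to exon 3, chr8:111864659-111864688: gcttcacaggattcgGGAAGAAAGCTCGCA
Exon 3 to the intronic stretch, chr8:111864575-111864604: gccggaaaacactggCGGAACCAGTATTTG
The intron of *Wdr70* at the same place, chr15:8043101-8043130: ctttcctgcttacagCGGAACCAGTATTTG
The third and the last lines share their capitals and differ before them, since the copy has the end of exon 3 there and *Wdr70* has intron.

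*Mir703* is annotated as a microRNA gene, the hairpin of which (109 bases in RefSeq) matched mm9 in full at chr5:98904575-98904683 on the minus strand. The mature form is printed with its seed (bases 2 to 8) in capitals, because the seed is the part with which a microRNA pairs to its targets.
mmu-miR-703: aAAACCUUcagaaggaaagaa
The hairpin had a second match at chr9:78326335-78326442, with 98.2% identity, in the last exon of *Eef1a1* (chr9:78326256-78336958, minus strand), which encodes translation elongation factor 1 alpha. The copies differed by the substitution A27G, counted from 1 at the 5′ end of the hairpin with the *Mir703* base first, and by the base at position 70 of the hairpin, which is missing from the *Eef1a1* copy. The mature form, at bases 29 to 49, was identical in both. In all, 15 places on 9 chromosomes matched at least 100 bases of the hairpin. Of these, 3 had 95% identity or more, the *Mir703* locus and the *Eef1a1* copy among them, so *Eef1a1* is not its only close copy. Reads counted on *Mir703* are reads over this locus in polyadenylated RNA and do not measure the mature microRNA.

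Levels in N2 embryos were scanned against the genotype at every autosomal gene with a rank score, which is the standardised rank-sum statistic on expression with lane, sex, somite number and 15 principal components regressed out. It is positive where B6/Cast embryos are higher. The members were chosen from these levels, so their scores restate that choice and nothing is read from them. The strongest markers on another chromosome scored 10.06 for *Gm1943*, 8.09 for *Mir703* and -7.03 for *Pop1*, and these were the 3 of 9733 genes (0.0308%) with an absolute score over 6.33, the Bonferroni value for 204821252 pairs. The study's own scan left out listed retrotransposed genes and genes with too many reads discarded for a near-equal second position. Those filters were not repeated here, and whether *Gm1943* and *Mir703* would have passed them was not tested. The other members scored lower, *Wdr65* at -5.97, *Etnk2* at -5.13, *Serbp1* at 5.12, *6030468B19Rik* at -5.08 and *Apeh* at -4.94, in ranks 4 to 12 of all genes. *Apeh* was the only member with a higher absolute score on its own chromosome, 7.24 at *Col6a6*. Without the principal components *Serbp1* scored 2.30 at the same marker, *Apeh* -2.48 and *6030468B19Rik* -3.08, and by their strongest markers they took ranks 8659, 7480 and 2948, whereas *Gm1943* scored 10.3, *Mir703* 8.84 and *Wdr65* -5.14.

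**Figure D1:**
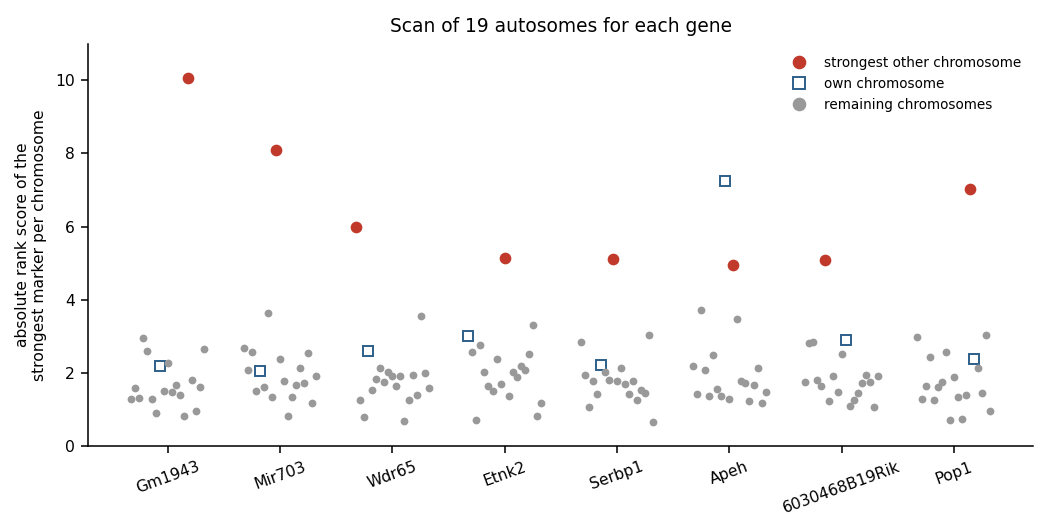
The absolute rank score (y axis, no unit) of the strongest marker on each of 19 autosomes is shown for the 7 members and Pop1 (x axis), with the strongest other chromosome in red, the gene's own chromosome as an open square and the remaining chromosomes in grey. The highest points are those of Gm1943 at 10.06 and Mir703 at 8.09, and for Apeh the own chromosome stands at 7.24.

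*Gm1943* was high in nearly every N2 embryo that was B6/Cast at *Wdr70* on chromosome 15 and near 0 in the B6/B6 embryos. It averaged 11.3 ± 6.13 RPM in the 74 B6/Cast embryos, with a lowest value of 0, a median of 12.9 and a highest of 25.1 RPM. In the 80 B6/B6 embryos it averaged 0.365 ± 0.492 RPM, with a median of 0.139 and a highest of 2.12 RPM. The groups overlapped in few embryos, since 71 of the 74 lay above every B6/B6 embryo. No read was counted in 40 B6/B6 and 2 B6/Cast embryos. The difference was 3.00 ± 0.12 on the log2(RPM + 1) scale (SE). The markers that best separated the embryos ran from *Wdr70* to *Zfr*, 31 genes with the same score, inside a region of 38 genes and 5.52 Mb (chr15:6763577-12281346).

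The genotype at *Gm1943* itself on chromosome 8 made little difference beside this. Where both loci were B6/Cast the mean was 12.0 RPM (n = 36), and where only *Wdr70* was B6/Cast it was 10.7 RPM (n = 38). Where only *Gm1943* was B6/Cast it was 0.275 RPM (n = 31), and where neither was it was 0.422 RPM (n = 49). Embryos with no Cast copy of the chromosome 8 locus thus also had reads there. The tables hold no vote of either allele for *Gm1943*, although 8267 reads were counted in F1 embryos, so which allele its reads carry cannot be read from them. Votes are estimated counts of reads that carry the B6 or the Cast base of a SNP, and 7.61% of the 9733 genes had none in any embryo.

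*Wdr70* itself differed little by its own genotype, at 21.8 ± 12.0 RPM in B6/Cast and 18.8 ± 9.48 RPM in B6/B6 embryos. The reads on *Gm1943* came to 59.7% of those on *Wdr70* in B6/Cast embryos, 2.00% in B6/B6 embryos and 93% in F1 embryos. Of the *Wdr70* votes in F1 embryos 33.5% were B6, 432 against 858 for Cast. Over F1 and B6/Cast N2 embryos the B6 share was 36.5%, and the paired test of allele balance gave a Bonferroni-adjusted p = 0.0321, which missed its threshold of 0.01. Among B6/Cast embryos the levels of both genes had a Spearman's rho of -0.51 (n = 74), but of -0.01 in flowcell 1 (n = 31) and of -0.68 in flowcell 2 (n = 43). These points share library depth and lane. *Golph3*, a Golgi membrane protein, had the largest difference by genotype among the 19 genes of the region at 5 RPM or more, 0.45 on the log2(RPM + 1) scale. By its own genotype *Golph3* averaged 18.9 ± 26.1 RPM in B6/Cast embryos (median 4.19) and 14.8 ± 23.2 RPM in B6/B6 embryos (median 2.54). The difference is small beside this spread.

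*Mir703* followed *Cd109* on chromosome 9 in the same direction, by an amount that depended on the lane. The 82 B6/Cast embryos averaged 9.33 ± 13.4 RPM, from 0 to 49.4 with a median of 1.5 RPM. The 69 B6/B6 embryos averaged 0.662 ± 1.15 RPM, from 0 to 6.34 with a median of 0. Below 6.34 RPM the groups overlapped, and 28 B6/Cast embryos lay above every B6/B6 embryo. The difference was 1.58 ± 0.23 on the log2(RPM + 1) scale. The region held 39 genes over 7.25 Mb (chr9:75623171-82869096), *Eef1a1* among them, and *Eef1a1* had the largest difference by genotype of its 14 genes at 5 RPM or more, 0.63 on the log2(RPM + 1) scale.

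The lane of sequencing set the level of *Mir703* in B6/Cast embryos apart. The lanes were grouped after their values were seen. In lanes A to G, which make up flowcell 1, 41 B6/Cast embryos averaged 0.433 RPM and reached at most 2.63 RPM. In lanes H and I, the first lanes of flowcell 2, 12 embryos averaged 3.67 RPM (from 0.968 to 10.0), and in lanes J to N, the rest of flowcell 2, 29 embryos averaged 24.3 RPM with a lowest value of 5.85. The ranges of lanes A to G and J to N did not overlap. B6/B6 embryos averaged 0.0856, 0.103 and 1.55 RPM in these sets. B6/Cast embryos had the higher mean in 12 of 14 lanes. Mothers of both kinds were present in lanes A to G (30 B6, 45 F1) and J to N (36 B6, 20 F1), while lanes H and I held embryos of B6 mothers only. Mean somite numbers were 48.5, 50.5 and 48.5.

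*Gm1943* varied by lane in another order. Its B6/Cast embryos averaged 15.6 RPM in lanes A to G, 16.2 RPM in lanes H and I and 5.57 RPM in lanes J to N, so the lanes in which *Mir703* was highest were those in which *Gm1943* was lowest. B6/Cast embryos had the higher mean in 14 of 14 lanes, from 3.17 RPM in lane J to 21 RPM in lane H. In flowcell 1 all 31 B6/Cast embryos lay above all 44 B6/B6 embryos, and the difference was 3.78 on the log2(RPM + 1) scale. Lane J had the lowest median depth, 577807 reads. The part of library preparation or depth in these lane differences was not tested.

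**Figure D2:**
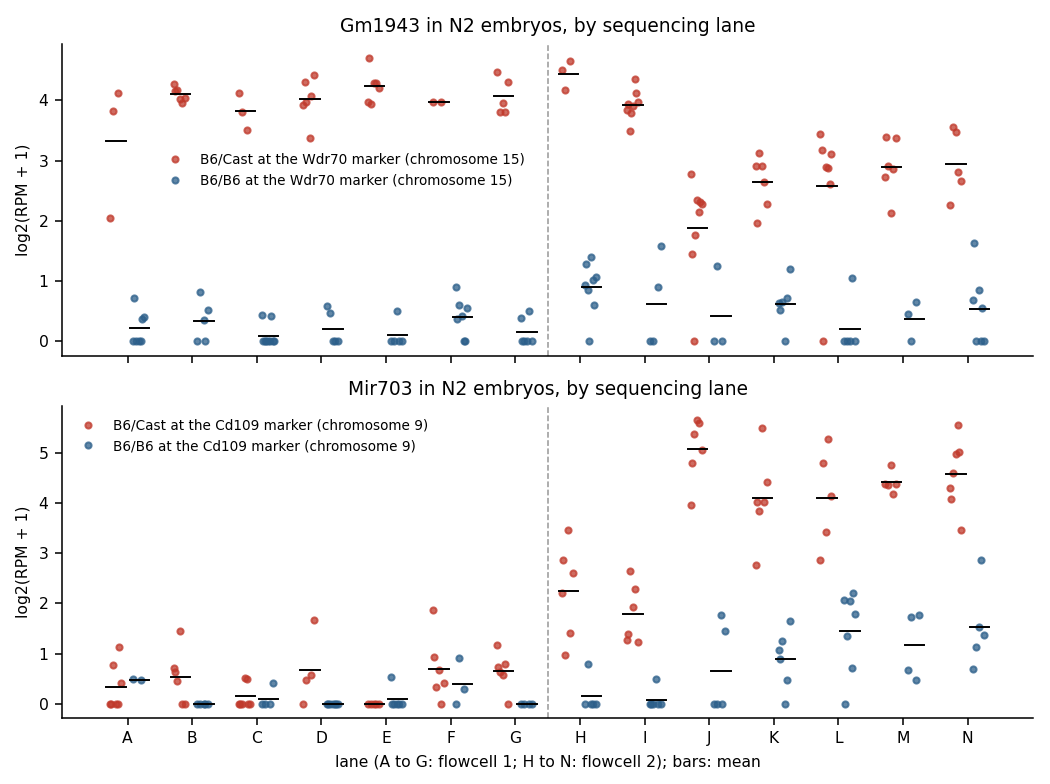
Each point is an N2 embryo, with log2(RPM + 1) of Gm1943 (upper) and Mir703 (lower) on the y axis, the lane on the x axis, B6/Cast embryos at the named marker in red, B6/B6 embryos in blue and bars at the mean, and the dashed line divides the flowcells. The mean of Gm1943 is higher in B6/Cast embryos in 14 of 14 lanes, whereas Mir703 in B6/Cast embryos averages 0.433 RPM in lanes A to G and 24.3 RPM in lanes J to N.

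By genotype at both loci, *Mir703* averaged 12.2 RPM where both were B6/Cast (n = 41) and 6.45 RPM where only *Cd109* was (n = 41). It averaged 0.482 RPM where only *Mir703* was B6/Cast (n = 34) and 0.837 RPM where neither was (n = 35). Embryos without a Cast copy of the chromosome 5 locus thus still had reads there when chromosome 9 was B6/Cast. *Eef1a1* was listed at 7.64 ± 4.91 RPM in B6/Cast, 4.72 ± 3.38 RPM in B6/B6 and 11.9 ± 5.53 RPM in F1 embryos. *Mir703* reads came to 86.6%, 14.2% and 44.5% of the *Eef1a1* reads in these groups. Both counts hold only reads left after the authors discarded those whose next-best position was nearly as good. How much of the full *Eef1a1* level these reads represent was not tested. Among embryos B6/Cast at *Eef1a1*, the levels of both had a Spearman's rho of 0.02 (n = 43) in flowcell 1 and 0.57 (n = 41) in flowcell 2. *Mir703* had no votes, and *Eef1a1* had 13.5 B6 votes and 1 Cast vote in F1 embryos.

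*Wdr65* encodes a WD repeat protein of motile cilia (chr4:118227156-118293382, minus strand). It was lower in embryos that were B6/Cast at *Lyplal1* on chromosome 1, at 16.6 ± 8.03 RPM (n = 70, from 4.68 to 41.2 with a median of 15.7) against 25.5 ± 13.5 RPM (n = 82, from 5.44 to 67.7 with a median of 22.3). The difference was -0.57 ± 0.12 on the log2(RPM + 1) scale, and the ranges of both groups overlapped widely. The B6/Cast mean was the lower in 14 of 14 lanes, from 9.07 to 26.9 RPM by lane. By genotype at both loci the mean was 17.1 RPM with both loci B6/Cast, 16.0 RPM with *Lyplal1* alone, 22.5 RPM with *Wdr65* alone and 28.2 RPM with neither. The region spans 92 genes and 13.3 Mb (chr1:177530505-190831719), and no other match to the transcript of *Wdr65* was found in mm9.

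*Etnk2* encodes an ethanolamine kinase, which starts the synthesis of phosphatidylethanolamine (chr1:135260149-135276913, plus strand). It averaged 5.47 ± 2.30 RPM in 73 embryos B6/Cast at *Cep57l1* on chromosome 10, from 0 to 11.0 with a median of 5.33, and 7.17 ± 2.33 RPM in 79 B6/B6 embryos, from 2.11 to 13.3 with a median of 6.92. The difference was -0.39 ± 0.09 on the log2(RPM + 1) scale, with the B6/Cast mean lower in 13 of 14 lanes. At its own locus the sign was the opposite, with a difference of 0.24 ± 0.09. The lowest mean of the 4 genotype classes, 4.95 RPM, was that of embryos B6/Cast at *Cep57l1* alone, and the others lay between 6.35 and 7.16 RPM. No other match to its transcript was found, and its region spans 56 genes over 8.82 Mb.

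*Serbp1* encodes an RNA-binding protein found on ribosomes (chr6:67216973-67239296, plus strand), and it was by far the most abundant member, at 2865 RPM and rank 21 of all genes. It averaged 2974 ± 793 RPM in 74 embryos B6/Cast at *Olfr873* on chromosome 9, from 843 to 5332 RPM, and 2764 ± 538 RPM in 80 B6/B6 embryos, from 1255 to 3909 RPM. The difference of 0.08 ± 0.06 on the log2(RPM + 1) scale is small beside the spread of the embryos. The best other match to its transcript was of 81.7% identity over 791 bases on chromosome 9, outside the region of 168 genes and 15.3 Mb.

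*Apeh* encodes acylaminoacyl-peptide hydrolase, which removes acylated amino acids from the ends of peptides (chr9:107987748-107996811, minus strand). It averaged 132 ± 42.7 RPM in 74 embryos B6/Cast at *Rabep1* on chromosome 11, from 48.4 to 248 RPM, and 148 ± 48.3 RPM in 80 B6/B6 embryos, from 55.3 to 260.3 RPM, with a difference of -0.16 ± 0.08 on the log2(RPM + 1) scale. Its own genotype gave a difference of 0.21 ± 0.08 in the other direction, with 150 RPM in 82 B6/Cast and 129 RPM in 72 B6/B6 embryos. The 4 genotype classes were ordered by both loci, from 125 RPM with *Rabep1* alone B6/Cast to 156 RPM with *Apeh* alone. No other match to its transcript was found.

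*6030468B19Rik* (chr11:117658974-117668615, plus strand) averaged 8.76 ± 4.81 RPM in 72 embryos B6/Cast at *Ctnna2* on chromosome 6, from 0.413 to 23.3 RPM, and 10.7 ± 6.17 RPM in 82 B6/B6 embryos, from 2.06 to 32.1 RPM. The difference was -0.26 ± 0.12 on the log2(RPM + 1) scale, and 0.31 ± 0.12 by the genotype at the gene itself. *Pdia2*, a protein disulfide isomerase, had its highest score at the same marker *Ctnna2*, -5.38. The transcript had 228 short matches elsewhere, none of 100 bases at 90% identity, and 4 of them lay in its region of 245 genes and 27.6 Mb. For comparison, *Pop1* averaged 15.4 ± 4.86 RPM in 86 embryos B6/Cast at *Rpph1* on chromosome 14 and 22.9 ± 7.18 RPM in 68 B6/B6 embryos, a difference of -0.54 ± 0.09, and its own genotype gave 0.003 ± 0.10.

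**Figure D3:**
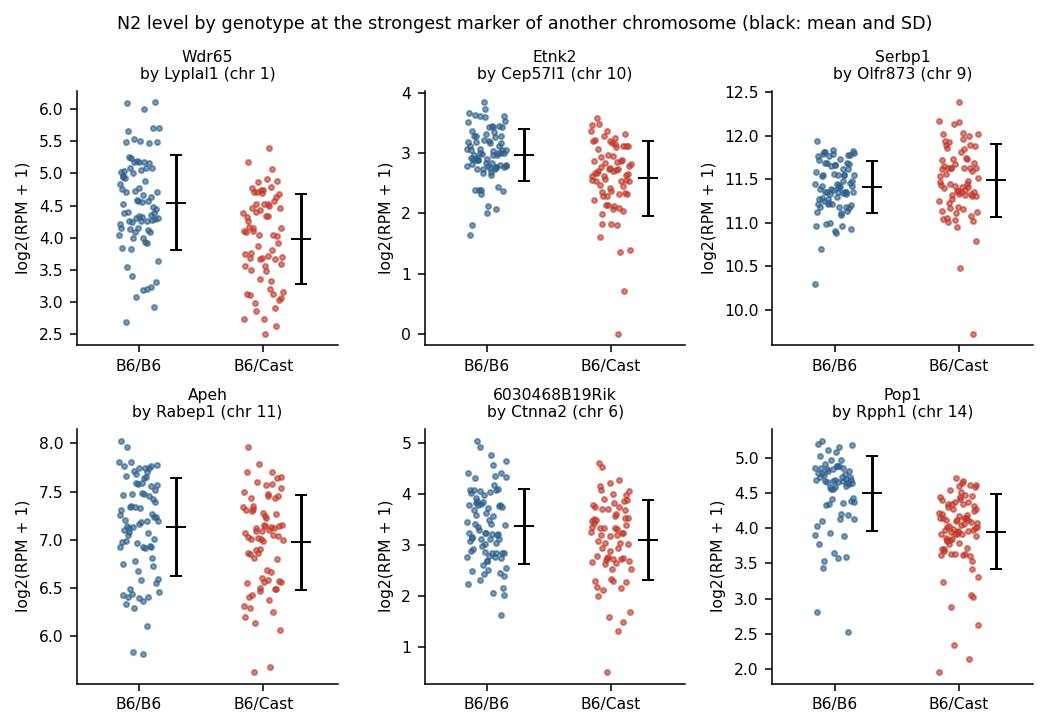
Each point is an N2 embryo, with log2(RPM + 1) on the y axis and the genotype at the named marker on another chromosome on the x axis, and the black marks give the mean and SD. The groups overlap in every panel, with differences of -0.57 for Wdr65, -0.39 for Etnk2, 0.08 for Serbp1, -0.16 for Apeh, -0.26 for 6030468B19Rik and -0.54 for Pop1.

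The allele balance of the members was tested on votes with the paired test of the study over F1 embryos and N2 embryos that were B6/Cast at the gene, for genes with at least 20 votes. Of 13291 genes 2062 (15.5%) were called at a Bonferroni-adjusted p under 0.01. Among the 3 members with enough votes, *Serbp1* was called, with 65.4% B6 votes (p = 1.79e-37) and between 59.2% and 70.5% in each of the 16 F1 embryos. Its B6 votes per counted read were 0.152 ± 0.0529 in 74 B6/Cast and 0.329 ± 0.0849 in 80 B6/B6 embryos, a ratio of 0.463. Its level by its own genotype was 2892 and 2840 RPM. Cast votes per counted read were 0.0788 ± 0.0326 in the B6/Cast embryos. All votes together came to 0.231 ± 0.0818 per read there and 0.329 ± 0.0848 in B6/B6 embryos. Fewer reads thus gave a vote where a Cast copy was present. Whether this raised the B6 share was not tested. By genotype at *Olfr873* the B6 share of *Serbp1* in these N2 embryos was 65.5% where that marker was B6/Cast and 66.1% where it was B6/B6. *Wdr65* had 108 votes, 46.3% of them B6, and *6030468B19Rik* 153 votes, 53.3% of them B6, and neither was called (adjusted p = 1 each). *Apeh* had no votes in 60390 F1 reads, and *Etnk2* had 2.

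F1 embryos are B6/Cast at each marker. The members were chosen with earlier results of these data known, so F1 levels are no independent check of that choice. *Gm1943* stood at 17.1, 18.9 and 18.4 RPM in litter 3 and at 15.7, 17.7, 16.5, 12.9 and 16.5 RPM in litter 5 of B6 × Cast. In Cast × B6 it stood at 12.5, 21.1, 19.9 and 19.8 RPM in litter 1 and at 23.9, 20.3, 19.7 and 25.6 RPM in litter 2. All 16 lay above every N2 embryo that was B6/B6 at *Wdr70*, and their mean of 18.5 ± 3.46 RPM was 1.63 times that of the B6/Cast N2 embryos. By lane those B6/Cast N2 embryos averaged 15.6 RPM (A to G), 16.2 RPM (H and I) and 5.57 RPM (J to N). The ratio thus depends on the lanes compared. The log2 ratio of F1 to N2 means was 1.56, the 99.6th percentile of 9733 genes, the median of which was 0.07. That N2 mean includes the 80 B6/B6 embryos near 0, so a high ratio was fixed by genotype and nothing is read from it. F1 and N2 libraries differ in depth, in read length and in part in sequencer, so these levels are set side by side with no test.

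*Mir703* in F1 embryos depended on the litter. It stood at 10.1, 8.18 and 9.66 RPM in litter 3 and between 1.95 and 3.44 RPM in litter 5 of B6 × Cast, and between 1.69 and 2.35 RPM in litter 1 and at 4.16, 21.6, 5.98 and 13.0 RPM in litter 2 of Cast × B6. Thus 5 of 16 embryos lay above every B6/B6 N2 embryo. Litters within a cross were compared after these values were seen. In B6 × Cast, litter 5 was lower than litter 3 by edgeR (log2 difference -1.72 ± 0.19, adjusted p = 0.00026), and in Cast × B6 litter 2 was higher than litter 1 (2.33 ± 0.46, adjusted p = 0.012). Such differences were common, since 24.2% of genes were called between the litters of B6 × Cast and 19.2% between those of Cast × B6. Litters 3 and 5 also differed in somite number, with 58 and 63 against 48 to 50, and by the sample names litter 2 was sequenced in another pair of runs than the other litters, so litter and run cannot be told apart in Cast × B6.

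The other members lay as follows in F1 embryos. *Wdr65* averaged 10.6 ± 3.78 RPM, below the 16.6 RPM of B6/Cast N2 embryos, and litter 5 was higher than litter 3 in B6 × Cast (1.04 ± 0.11, adjusted p = 0.00023 by edgeR). *Etnk2* averaged 8.20 ± 1.04 RPM, above both N2 groups (5.47 and 7.17 RPM), and *Pop1* averaged 20.2 ± 3.01 RPM, between its N2 groups. *Serbp1* averaged 2778 ± 366 RPM and *Apeh* 136 ± 13.8 RPM, with N2 means of 2974 and 2764 RPM and of 132 and 148 RPM. *Serbp1* was also higher in litter 5 than in litter 3 (0.55 ± 0.13, adjusted p = 0.0113). *6030468B19Rik* averaged 16.1 ± 9.74 RPM, above both N2 groups (8.76 and 10.7 RPM), with litters far apart.

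**Figure D4:**
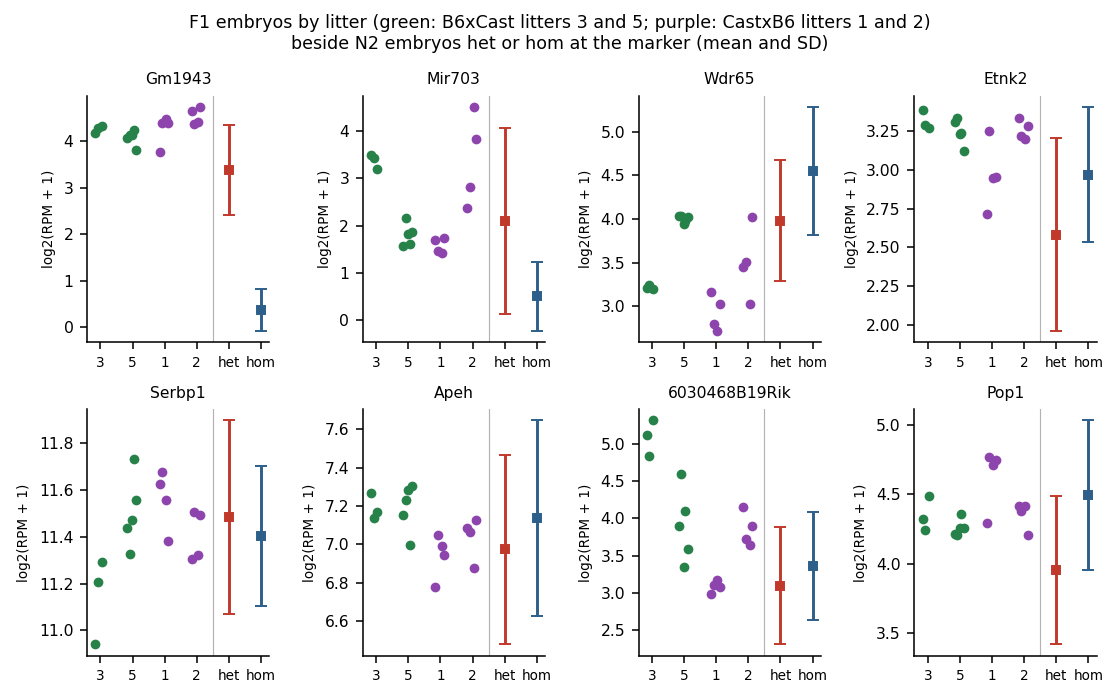
Points are the 16 F1 embryos by litter (x axis, B6 × Cast in green and Cast × B6 in purple) with log2(RPM + 1) on the y axis, beside the mean and SD of N2 embryos that were B6/Cast (het, red) or B6/B6 (hom, blue) at the marker of each gene. All F1 embryos of Gm1943 lie near the het group, Mir703 differs between litters, and 6030468B19Rik is highest in litter 3 and lowest in litter 1.

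The direction of the F1 cross was compared with edgeR to see whether a member depends on which parent gave the Cast genome. Between Cast × B6 and B6 × Cast embryos 3788 of 14625 genes (25.9%) were called at an adjusted p under 0.05, among them 2 of the 7 members. *Gm1943* was higher in Cast × B6, at 20.4 ± 3.83 against 16.7 ± 1.86 RPM (n = 8 each, log2 difference 0.35 ± 0.11, adjusted p = 0.030), and *6030468B19Rik* was lower, at 10.5 ± 3.62 against 21.7 ± 10.9 RPM (-0.96 ± 0.26, adjusted p = 0.014). Each cross has 2 litters, and embryos of a litter were tested as replicates of the cross. Between the litters within a cross 24.2% (B6 × Cast) and 19.2% (Cast × B6) of genes were called. The crosses also differed in somite number. With only the litters closest in stage, 5 and 2, *6030468B19Rik* gave -0.17 (adjusted p = 0.68), *Gm1943* 0.43 (adjusted p = 0.061) and *Mir703* 2.09 (adjusted p = 0.011). That comparison has 1 litter per cross, and litter 2 was sequenced in another pair of runs, so cross, litter and run cannot be told apart in it.

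In N2 embryos the mother was compared in the same way. Between F1 and B6 mothers 2551 of 10007 genes (25.5%) were called, and 1 member, *Mir703*, which was lower with F1 mothers (-1.18 ± 0.42, adjusted p = 0.028 by edgeR). Flowcell 2, in which *Mir703* was high, held 59 of 89 embryos of B6 mothers and 20 of 65 of F1 mothers. With flowcell as a term the difference was -0.37 (adjusted p = 0.36). The mother is shared by a litter, and over the means of the 29 litters limma gave -1.19 for *Mir703* (adjusted p = 0.33) and called 0 genes, with 1336 at an unadjusted p under 0.05 and 2781 called by DESeq2 over embryos. The other 6 members had log2 differences between -0.16 and 0.24 with adjusted p of at least 0.28.

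Stage was examined as the slope of the level per somite in 147 N2 embryos, with the mother as a term. Of 10007 genes 3433 (34.3%) were called, among them 2 of the 7 members. *Serbp1* fell with somite number, with a slope of -0.05 ± 0.01 on the log2 scale per somite (adjusted p = 2.92e-06), and of -0.03 ± 0.01 with lane as a term (adjusted p = 0.0449). Within lanes it was -0.05 ± 0.01 for B6 mothers (adjusted p = 0.0044) and 0.03 ± 0.02 for F1 mothers (adjusted p = 0.52). *6030468B19Rik* rose with a slope of 0.11 ± 0.02 (adjusted p = 1.51e-05), and of 0.17 ± 0.03 within lanes (adjusted p = 1.54e-07). In F1 embryos its litter means had the same order as the somite numbers, with 7.48 RPM in litter 1 (41 to 43 somites), 13.6 RPM in litter 2 (46 to 48), 14.7 RPM in litter 5 (48 to 50) and 33.3 RPM in litter 3 (58 and 63). Litter 5 was lower than litter 3 (-1.01 ± 0.23, adjusted p = 0.0110) and litter 2 higher than litter 1 (0.73 ± 0.16, adjusted p = 0.0173) by edgeR, the latter not without embryo 4 of litter 1 (0.71, adjusted p = 0.057).

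With no lane term, the slopes differed between embryos of F1 and B6 mothers for 4609 of 10007 genes (46.1%), among them *Mir703* (difference in slope 0.62 ± 0.19, adjusted p = 0.0060), *Wdr65* (-0.24 ± 0.05, adjusted p = 0.00050) and *6030468B19Rik* (-0.15 ± 0.04, adjusted p = 0.0035). With lane as a term, an alternative added after these values were seen, 1 gene was called and 640 had an unadjusted p under 0.05. The differences were then 0.29 for *Mir703* (adjusted p = 0.89), -0.06 for *Wdr65* (adjusted p = 0.91) and 0.01 for *6030468B19Rik* (adjusted p = 0.99), so none of the 3 calls held within lanes. Among embryos of F1 mothers, *Mir703* in B6/Cast embryos averaged 19.5 RPM in lane L and 20.6 RPM in lane M, the latter with 1 embryo of a B6 mother included, and at most 0.760 RPM in lanes C, D, E and G. Lane E also had the lowest mean somite number of these lanes, 45.7. The slope of *6030468B19Rik* within lanes was 0.17 ± 0.03 for B6 mothers (adjusted p = 8.16e-06) and 0.18 ± 0.05 for F1 mothers (adjusted p = 0.074).

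**Figure D5:**
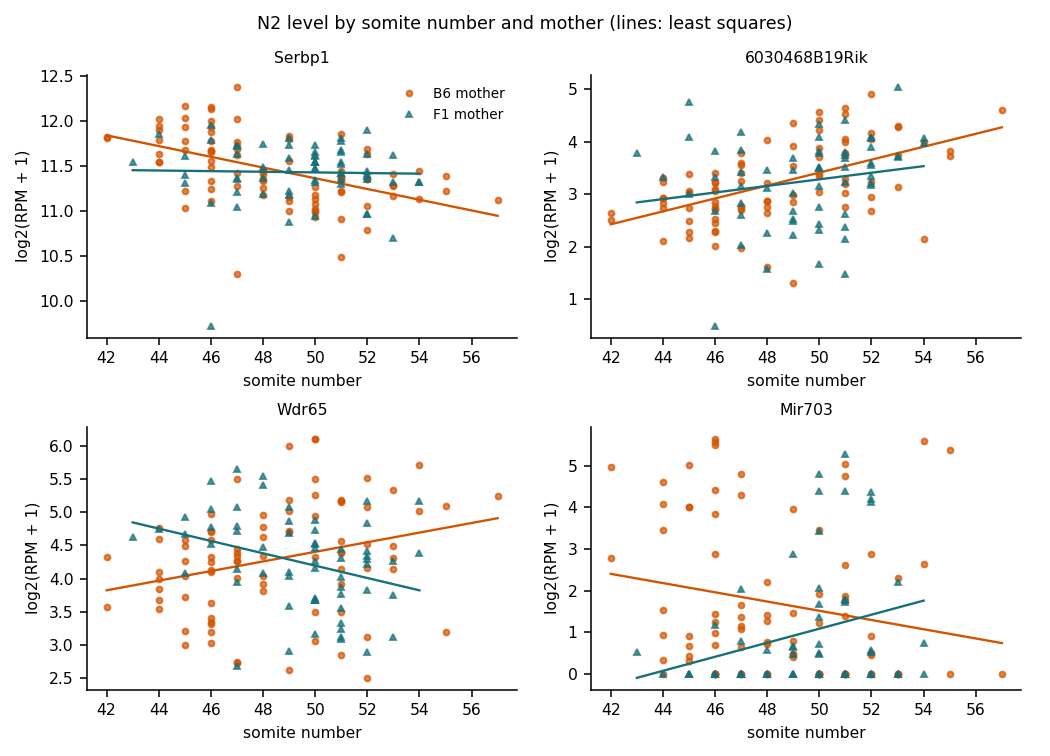
Each point is an N2 embryo with its somite number on the x axis and log2(RPM + 1) on the y axis, with circles for B6 mothers, triangles for F1 mothers and least squares lines for each. Serbp1 falls and 6030468B19Rik rises with stage, and the lines of Wdr65 and Mir703 run in opposite directions for the kinds of mother, a difference that was not called with lane as a term.

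The genes whose levels were most like those of each member over the 154 N2 embryos were found by Spearman's rho after centring each lane, which describes embryos that share libraries and genotypes. For *Gm1943* they lie on chromosome 15, with *Ly6e* at -0.46, *Rad1* at -0.45 and *Tst* at 0.43, and for *Mir703* they include genes of chromosome 9, *Ubl7* at 0.61 and *Pccb* at -0.46. Those of *Etnk2* lie on chromosome 10, with *Wdr18* at 0.49, *Mical1* at 0.43 and *Smpd2* at 0.43. For these members the genes named were thus on the chromosome of the marker.

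The remaining members were alike to genes on several chromosomes. Among those most like *Wdr65* were *Alas2*, which makes the first haem precursor in red cells, at 0.55, and the embryonic globin *Hbb-y* at 0.53. *6030468B19Rik* was most like *Tspo2* at 0.71, *Pdia2* at 0.67 and the adult globin *Hbb-b1* at 0.64, which rose with somite number by 0.27, 0.26 and 0.19 on the log2 scale per somite (adjusted p = 2.49e-17, 4.48e-15 and 1.16e-10 by edgeR). *Serbp1* was most like *Sfxn1* at 0.57, *Ptprf* at 0.55 and *Rcor2* at 0.54, and those most like *Apeh* included *Ndufaf3* at 0.59 and *Tmed10* at -0.52.

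Genes that work beside the members were counted in the same tests, in which 34.3% of all genes were called by somite number, 25.5% by mother and 25.9% between F1 crosses. The calls by mother and between F1 crosses rest on embryos. By mother 0 genes were called over litter means by limma. Of 8 genes listed as making or using phosphatidylethanolamine, the product of the pathway of *Etnk2*, 7 were tested by somite number. The choline kinase *Chkb* (0.03) and the methyltransferase *Pemt* (0.04) rose per somite and the decarboxylase *Pisd* fell (-0.04). With F1 mothers 3 were lower, *Cept1* (-0.69), *Pemt* (-0.45) and *Chkb* (-0.16), and none higher. Between F1 crosses 1 of 8 was higher in Cast × B6, *Ept1* (0.52), and 1 lower, *Chkb* (-0.41). *Etnk2* itself passed none of these tests.

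Of 19 genes of motile cilia, the list of *Wdr65*, 6 were tested by somite number and *Tekt2*, a tektin of the ciliary axoneme, rose (0.24). With F1 mothers *Ccdc40* was higher (0.34) and *Tekt1* (-0.33) and *Tekt2* (-0.53) lower, and between F1 crosses 1 of 13 was lower in Cast × B6, *Tekt2* (-1.55). Another 5 genes were listed as partners of *Serbp1* or as ribosome-bound factors. Of these, *Chd3* rose with somite number (0.04), *Ccdc124* was lower with F1 mothers (-0.32), and none differed between F1 crosses. Of 8 peptidases of the family of *Apeh*, 5 were tested in N2 embryos, where *Dpp6* rose with somite number (0.18) and *Dpp6* (-0.47) and *Dpp9* (-0.20) were lower with F1 mothers. Between F1 crosses *Prep* was higher (0.68) and *Dpp4* (-0.65) and *Dpp6* (-0.45) lower in Cast × B6. By comparison, the median over all genes was 0.03 between F1 crosses, -0.02 between mothers and -0.01 per somite, and the medians of the 4 lists lay between -0.19 and 0.12.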

How the data were processed

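Raw read counts per RefSeq gene were deposited for single embryos. The authors mapped 3SEQ reads with Bowtie2 to the B6 (mm9) and Cast genomes, discarded reads whose next-best position was nearly as good and counted reads on exons. The deposited votes are estimated counts per allele, and the deposited genotype score of each gene and embryo was read as B6/B6 (51.3% of pairs, 0.194% Cast votes), B6/Cast (48.1%, 50.0% Cast votes) or not called (0.524%). The 2 runs of an F1 embryo share 1 deposited column.

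Of 168 N2 columns, 154 were used, 6 lack genotypes and 8 have no labelled mother. Counts were divided by their total to give RPM. At the median N2 depth 5 RPM is 11.5 reads, so low members are imprecise in single embryos. Somite number was set to the mean for 7 embryos in the scan. The 15 principal components stand in for PEER. The study's filters on retrotransposed genes and on genes with many discarded reads were not repeated.

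Counts were tested with edgeR 4.0.16 (quasi-likelihood, TMM, Benjamini-Hochberg adjusted p under 0.05), with DESeq2 1.42.0 and limma 3.58.1 as alternatives, and votes with a two-sided paired test. Errors of log2 differences are SE. Genes above 5 RPM were tested in N2, those kept by filterByExpr in F1. Nothing in the labels says that embryos of a litter are independent, so p-values measure the spread between embryos. Copies were searched with blastn 2.17.0 in mm9, with GENCODE vM1 positions. Sequences of *Mir703* are from RefSeq (GRCm38.p6 table). Tests were checked on simulated data.

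The members and gene lists were chosen with earlier results of these data known. The genes named are the members, the 3 genes most like each (some are not reported here), the gene with the largest difference in a region past the threshold, copies, and list genes past a test.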

Additional observations from a re-analysis of the deposited data

Results flagged for a closer look

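In the group of 8 Cast × B6 embryos, the lowest *Gm1943* level, 12.5 RPM, lay farther from the other 7 than Dixon's criterion at 95% allows. It belongs to embryo 1 of litter 1. The criterion was applied to 14 groups, 7 members in 2 crosses, and marked 1 of them, and chance marks about 1 in 20 groups.

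The slope of the level per somite differed between N2 embryos of F1 and B6 mothers, by the interaction term of edgeR, for 3 members. The difference was 0.62 for *Mir703*, -0.24 for *Wdr65* and -0.15 for *6030468B19Rik* on the log2 scale per somite, and 46.1% of all genes tested were called in this comparison. With lane as a term the differences were 0.29, -0.06 and 0.01, with adjusted p of 0.89, 0.91 and 0.99 by edgeR, and none was called.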

How the results depend on the processing

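No paired analysis was possible because the replicate numbers are only the order of deposition. Among values of single members under alternative settings, 115 kept their direction and side of the threshold, 11 lost a call, 4 gained one and 24 turned. The counts of genes called changed most with the samples or terms of the model: 1549 between F1 crosses with the closest litters, 4881 by mother with flowcell as a term and 0 with litter means in limma (1336 at an unadjusted p under 0.05, with 2781 called by DESeq2 over embryos), and by somite number 1023 with lane as a term, 5238 for B6 mothers and 1243 for F1 mothers, or 562 and 128 with lane as a term as well. Allele balance gave 1210 genes with F1 embryos only and 4196 with Benjamini-Hochberg adjustment. The genotype difference of *Gm1943* was 3.78 in flowcell 1. With plain RPM the rank scores at the same markers were 5.08 for *Mir703*, -4.36 for *Wdr65*, 1.44 for *Serbp1*, -2.06 for *Apeh* and -1.74 for *6030468B19Rik*, and without principal components 2.30, -2.48 and -3.08 for the last 3. With plain RPM the strongest marker of these 3 moved to another chromosome. It lay on chromosome 3 for *Serbp1* (2.64) and *Apeh* (-3.12) and on chromosome 2 for *6030468B19Rik* (2.93). The threshold of the scan was then passed by 2 genes, *Gm1943* and *Pop1*. The F1 cross difference of *Serbp1* turned to -0.17 with the closest litters. By mother, *Gm1943* turned to -0.032 with flowcell as a term and -0.12 with litter means, *Serbp1* to 0.050 with somite number as a term, *Apeh* to 0.10 and *6030468B19Rik* to -0.015 with litter means, and the latter to -0.0050 with all labelled embryos. By somite number, *Gm1943* turned to -0.013 with lane as a term, -0.11 for F1 mothers and -0.0084 with DESeq2, *Etnk2* to -0.0060 and -0.011, and *Apeh* to -0.011 and -0.015, with lane and for F1 mothers, *Mir703* to 0.52 for F1 mothers and 0.044 with DESeq2, and *Wdr65* to -0.12 for F1 mothers. With lane as a term, added after the values were seen, *Gm1943* was at -0.035, *Etnk2* at -0.0041 and *Apeh* at -0.016 for B6 mothers, and *Mir703* at 0.21, *Wdr65* at -0.041, *Etnk2* at -0.0092 and *Serbp1* at 0.025 for F1 mothers. The difference in slope between mothers, called for 1 gene with lane as a term, then turned to 0.075 for *Gm1943*, 0.074 for *Serbp1*, 0.024 for *Apeh* and 0.014 for *6030468B19Rik*. *Gm1943* lost its F1 cross call with library size scaling (adjusted p = 0.11) and with all genes (0.066), *Mir703* its call by mother with library size (0.053), somite number (0.053) or litter means (0.33), and *Apeh* gained one with flowcell as a term (-0.42, adjusted p = 0.00049) and between F1 crosses with library size (-0.20, adjusted p = 0.035). Without any single embryo the litter comparison of B6 × Cast called 1794 to 3840 genes and that of Cast × B6 1215 to 3303. The counts were lowest without embryos 3 and 4 of litter 3 (1794 and 1839) or 7 of litter 5 (2166), and without embryos 2 and 4 of litter 1 (1269 and 1280) or 5 and 6 of litter 2 (1215 and 1809). The call of *6030468B19Rik* between litters 1 and 2 was lost without embryo 4 of litter 1 (0.71, adjusted p = 0.057). The cause was not tested in any of these.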

Other observations

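The N2 libraries outside the comparisons were shallow in part, with 27 to 7612442 counted reads in the 6 without genotypes and 5 to 1210811 in the 8 whose labels name no mother. *Gm1943* had reads in 1 library of each set, at 0.788 and 21.5 RPM, and *Mir703* in 2 of the first set and 0 of the second.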
